A study of Homo sapiens with 12 samples.

Results

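The S100 and annexin genes code for calcium-binding proteins and were taken from the count table by symbol, as every row named S100 with an A number (with or without a final A), S100B, S100P, S100Z or S100G, or ANXA with a number. The rule found 32 of 57500 genes, 20 of them S100 genes and 12 of them annexins, and it used no measured value. Of the S100 genes, 16 lie on chromosome 1. In all 12 libraries 6 members stayed at or below 3 counts, namely S100A7A, S100A7, S100A12, S100Z, S100B and ANXA10, and 26 members rose above 3 counts in at least 1 library.

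S100 proteins are small dimers with paired EF-hand loops that open on calcium and bind partner proteins. Annexins carry a core of repeats that attaches to acidic phospholipids when calcium rises, and they serve membrane repair, vesicle traffic and the cortical cytoskeleton. The families meet in complexes: S100A10, which has lost calcium binding, joins ANXA2 in a heterotetramer at the plasma membrane, S100A11 binds ANXA1 and ANXA2, and S100A6 binds ANXA11. Several S100 proteins are also secreted and act on receptors such as AGER (RAGE) and TLR4, and S100A4, S100P and ANXA2 have long been studied for their link to migration of carcinoma cells.

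The values come from total RNA sequencing of 12 libraries in 4 groups of 3 biological replicates. SW480 is an established line from a primary colorectal cancer and SW620 one from a metastatic site of the same patient, both grown in DMEM with serum and antibiotics. PEO4 is an established ovarian cancer line grown in RPMI 1640 with the same supplements, either in standard medium (control) or with TGF-β at 10 ng/mL for 6 days. Each group is 1 cell line, so a difference between SW480 and SW620 is between these lines, and the labels do not say that replicates came from separately grown cultures, so p-values measure the spread between these libraries.

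The 5 stretches shown here are the 150 bases before a RefSeq start of the members that carry the main results, 5′ to 3′ on the gene's strand (GRCh38.p14). S100P was the member most raised in SW620, ANXA2 and S100A10 code for partners that were both lower there, ANXA1 was far higher in PEO4 than in SW libraries, and S100A2 passed edgeR's test in both comparisons. Capitals mark the letters of a TATA box (TATAAA) or of an AP-1 site (TGANTCA, where N is any base), searched on both strands.
S100P (chr4:6693728-6693877, plus strand): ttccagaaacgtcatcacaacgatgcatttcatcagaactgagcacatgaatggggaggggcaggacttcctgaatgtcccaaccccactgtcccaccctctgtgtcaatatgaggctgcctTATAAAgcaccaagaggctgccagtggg
ANXA2 (chr15:60397987-60398136, minus strand): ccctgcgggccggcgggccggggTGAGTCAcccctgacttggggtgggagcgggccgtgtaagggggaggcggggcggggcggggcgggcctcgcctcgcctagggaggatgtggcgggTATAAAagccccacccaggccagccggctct
S100A10 (chr1:151993860-151994009, minus strand): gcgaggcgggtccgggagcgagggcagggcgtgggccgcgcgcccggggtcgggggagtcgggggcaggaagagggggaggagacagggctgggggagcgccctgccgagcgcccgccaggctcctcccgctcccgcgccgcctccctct
ANXA1 (chr9:73151715-73151864, plus strand): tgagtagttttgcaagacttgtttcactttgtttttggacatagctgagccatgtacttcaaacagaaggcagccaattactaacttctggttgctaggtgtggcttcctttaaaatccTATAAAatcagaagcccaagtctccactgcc
S100A2 (chr1:153565845-153565994, minus strand): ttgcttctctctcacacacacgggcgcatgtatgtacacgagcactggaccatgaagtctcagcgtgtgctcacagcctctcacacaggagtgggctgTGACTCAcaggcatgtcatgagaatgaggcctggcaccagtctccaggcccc

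The TATA letters begin at position -28 in S100P and at -31 in both ANXA2 and ANXA1, counted back from the start. S100A10 has neither motif in this window, and G or C makes up 81.3% of its 150 bases, against 76% for ANXA2 and 41.3% for ANXA1. S100A2 has 2 RefSeq starts. The window shown has no TATA letters but has AP-1 letters at -52, and the 250 bases before the other start have neither motif. ANXA2 has AP-1 letters at -127. RefSeq gave windows for 29 of the 32 members, some with more than 1 start, and a match before any of a member's starts was counted. Over the 250 bases before the start, TATAAA stood in 14 of these 29 members (48.3%), against 13% of all 27305 genes with a window, and 11 members (37.9%) had it between 25 and 35 bases before the start, against 3.35% of all genes. TGANTCA stood in 5 of 29 members (17.2%) and in 8.06% of all genes, and the members were ANXA2, S100A2, S100A3, S100A5 and S100A12. The TEAD letters GGAATG stood in 2 of 29 members (6.9%) and in 14.3% of all genes, and the SMAD letters GTCTAGAC stood in 0 members and in 0.231% of all genes. A match is a stretch of letters and not a measured binding site.

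Library totals ran from 14531420 to 22028956 counts. Levels are given as CPM, counts per 1e6 counts in genes kept by the filter, scaled by TMM factors over all 12 libraries, and 3 counts correspond to 0.139 to 0.176 CPM. Marker lists followed the labels when PEO4 and SW libraries were compared. The 7 ovarian markers summed to 5358 to 8708 CPM in PEO4 control libraries and to 2999 to 4784 CPM with TGF-β. In SW480 they summed to 109 to 132 CPM and in SW620 to 134 to 194 CPM. The 8 colorectal markers summed to 90.5 to 115 CPM in SW480, 281 to 402 CPM in SW620 and 9.12 to 13.3 CPM in PEO4, where CDX1 and KRT20 were at 0 counts. Within SW480 the ovarian sum was thus not below the colorectal sum, so the lists alone do not tell its tissue. From these data 86 genes were picked with at least 10 CPM in every PEO4 library and at most 3 counts in most SW libraries. SW620 replicate 3 held their reads at 1.22% of their PEO4 level, against 0.232% to 0.431% in the other 5 SW libraries. Whether these reads came from PEO4 or from low expression in the SW lines was not tested. Genes with at most 1500 bases of joined exons, among them many S100 genes, also shifted together between SW libraries. For those above a mean log2 CPM of 2, deviations were taken from the mean over the SW480 and SW620 libraries together. The median log2 deviation was -0.19 in SW620 replicate 2 and 0.26 in SW620 replicate 3. Genes over 5000 bases moved the same way but less there, at -0.088 and 0.083. In PEO4, with deviations from the mean over its own libraries, the short genes stood at -0.042 to -0.016 in control. With TGF-β they stood at 0.062, 0.135 and -0.060 in replicates 1 to 3. The part of these shifts in the members' values was not tested.

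**Figure D1:**
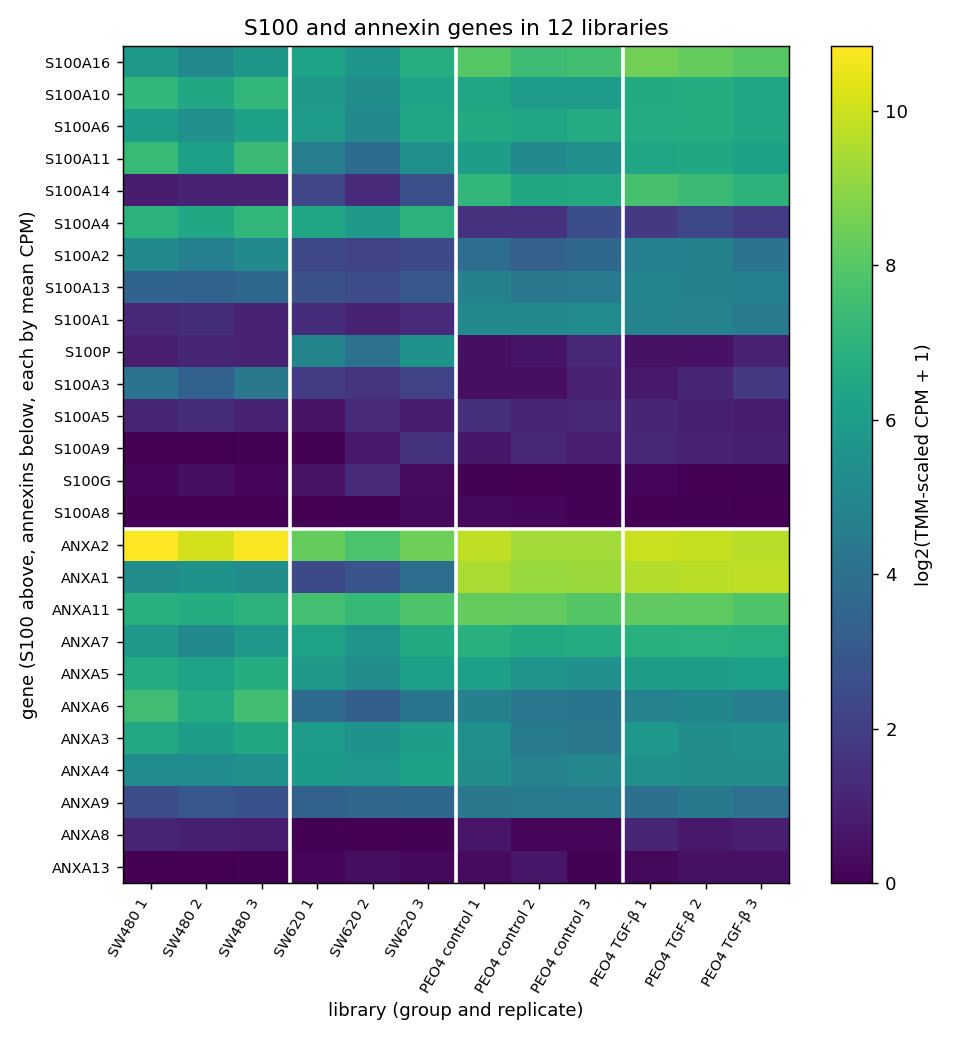
Level of the 26 members with more than 3 counts in at least 1 library, as log2 of TMM-scaled CPM plus 1 (colour), in the 12 libraries (columns); S100 genes stand above the white line and annexins below it, each ordered by mean CPM. ANXA2 is bright in every library, ANXA1, S100A14 and S100A1 are brighter in PEO4, S100A4 in SW, and S100P in the SW620 libraries.

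Most of the members tested differed between SW620 and SW480, more often towards lower levels in the metastasis-derived line. Of the 22 members tested, 15 passed edgeR's quasi-likelihood test at an adjusted p under 0.05, and in SW620 5 of these were higher and 10 were lower. That is 68.2% of the members tested, where the same rule called 30.5% of all 20941 genes tested, 13.5% higher and 17% lower. The median log2 fold change of the tested members was -0.46, against 0.03 over all genes tested. By family, 2 S100 genes were higher and 5 lower of 12 tested, and 3 annexins were higher and 5 lower of 10 tested. Replicate values did not overlap between the lines for 16 members, 5 higher and 11 lower, where 44.2% of all genes tested did not overlap. Sums of the 4 endothelial markers (4.92 to 8.64 against 2.78 to 3.05 CPM) and of the 5 fibroblast markers (7.31 to 14.3 against 2.58 to 2.83 CPM) were higher in SW620 than in SW480 at a low level, and their part in the members' values was not tested.

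ANXA2, the annexin that organises actin and plasminogen at the membrane, was the most abundant member in SW480 by CPM. Its level was 1830, 1091 and 1757 CPM in the SW480 libraries and 306, 218 and 353 CPM in the SW620 libraries. The highest SW620 library lay well below the lowest SW480 library, and the log2 fold change was -2.40 ± 0.29 (SE, adjusted p = 2.76e-04). S100A10, its light chain, stood at 144, 88.2 and 144 CPM in SW480 and at 56.3, 39.7 and 75.6 CPM in SW620. The groups did not overlap, but the difference was smaller, at -1.11 ± 0.27 (adjusted p = 0.0136), and it lost its call without SW480 replicate 1 or 3 or SW620 replicate 1 (adjusted p 0.00378 to 0.0829 over the 6 fits without 1 library). The partners therefore did not keep their proportion: S100A10 counts over ANXA2 counts were 0.0804 ± 0.0017 in SW480 and 0.194 ± 0.0181 in SW620 (SD, n = 3). All 3 ratios of SW620, from 0.182 to 0.214, exceeded all 3 of SW480, from 0.0785 to 0.0817. No test was run on this ratio, and 3 libraries against 3 cannot give an exact two-sided p below 0.10.

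ANXA1, a partner of S100A11 and a mediator that damps inflammation through formyl peptide receptors, was lower in SW620 too. It was measured at 38.7, 46.6 and 39.0 CPM in SW480 and at 4.34, 6.15 and 14.3 CPM in SW620. The groups did not overlap, and the log2 fold change was -2.30 ± 0.38 (adjusted p = 0.00186), or -2.97 without SW620 replicate 3, the highest of its group. PEO4-like reads at the level of the 86 genes would make up 39.1%, 28% and 62.3% of ANXA1 in the 3 SW620 libraries and 4.96%, 6.76% and 5.52% in SW480. Less that amount, ANXA1 stood at 36.8, 43.5 and 36.8 CPM in SW480 and at 2.64, 4.43 and 5.39 CPM in SW620. That is a 9.39-fold difference of the means, against 5.01-fold as measured. The subtraction assumes that the reads of the 86 genes came from PEO4, which was not tested. Picking those genes for few SW counts also limited the level taken off. S100A11 itself stood at 160, 68.1 and 165 CPM in SW480 and at 24.0, 13.3 and 43.0 CPM in SW620. No SW620 library reached the lowest SW480 library, and the log2 fold change was -2.27 ± 0.45 (adjusted p = 0.00481). The ratio of S100A11 to ANXA1 counts was 1.46 to 4.22 in SW480 and 2.16 to 5.54 in SW620, and it depends on the PEO4-like reads. Less those reads from both genes it was 4.34, 1.56 and 4.46 in SW480 and 9.03, 2.96 and 7.83 in SW620, overlapping through SW620 replicate 2.

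**Figure D2:**
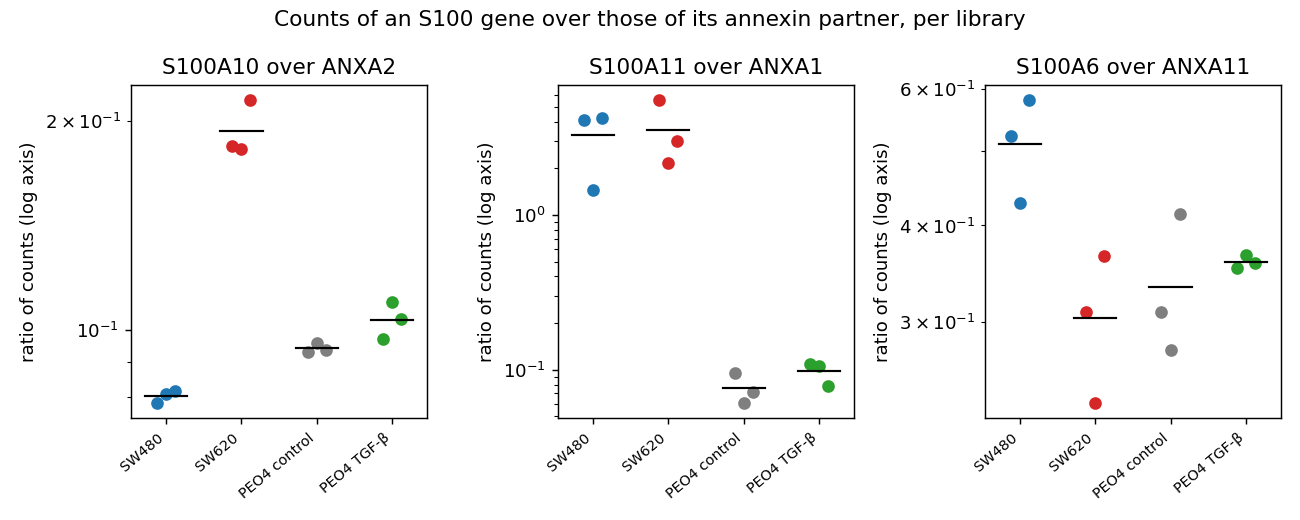
Counts of an S100 gene divided by counts of its annexin partner in each library (points) with the group mean (line), on log axes that differ between panels. S100A10 over ANXA2 is 0.182 to 0.214 in SW620 and at most 0.110 in every other group, S100A11 over ANXA1 separates PEO4 from SW, and S100A6 over ANXA11 is highest in SW480.

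ANXA6, the large annexin with a doubled core that tethers membrane to actin and acts in endocytic traffic, showed one of the widest gaps. Its level was 182, 100 and 187 CPM in SW480 and 12.8, 8.64 and 17.7 CPM in SW620. The lines did not overlap, and the log2 fold change was -3.56 ± 0.33 (adjusted p = 6.81e-05), or 11.8-fold lower in SW620. ANXA5, the annexin known for binding phosphatidylserine, differed less, with 101, 75.9 and 105 CPM in SW480 and 56.4, 39.0 and 67.9 CPM in SW620. Its difference of -0.77 ± 0.23 (adjusted p = 0.0309) kept its call in only 2 of the 6 fits without 1 library, where the adjusted p ran from 0.00994 to 0.143. ANXA8 had 23, 16 and 15 counts in SW480 and 1, 0 and 1 in SW620. Against the floor of 3 counts per library this is at least 6.41-fold lower (edgeR adjusted p = 0.00154), but reads are hard to place between ANXA8 and its near-identical copy ANXA8L1. The summed counts of both copies were 44, 32 and 46 in SW480 and 2, 0 and 1 in SW620, so the direction did not rest on how reads were split.

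S100A2, an S100 protein of basal epithelia that binds p53, had the smallest adjusted p of all members. Its level was 35, 24.4 and 34.3 CPM in SW480 and 4.09, 3.62 and 4.23 CPM in SW620. The log2 fold change of -2.95 ± 0.21 (adjusted p = 1.45e-05) is a 7.72-fold lower level in SW620, with tight SW620 replicates. S100A3, a zinc-binding member typical of hair cuticle that lies within the annotated span of S100A4, had 16.5, 9.37 and 19.0 CPM in SW480 and 2.68, 2.05 and 3.53 CPM in SW620. It was also clearly separated, at -2.41 ± 0.33 (adjusted p = 5.89e-04). S100A13, which takes part in the export of proteins that lack a signal peptide, had 10.3, 9.84 and 11.2 CPM in SW480 and 5.41, 4.80 and 6.69 CPM in SW620. The difference was -0.87 ± 0.22 (adjusted p = 0.0149), was not called in 3 of the 6 fits without 1 library, and is uncertain because S100A13 shares 235 exon bases with S100A1 on the opposite strand and the strand setting of the counting is not given in the sources used here. It also shares 536 exon bases with the processed transcript AL162258.1 on its own strand, which no strand setting separates.

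S100P, a small member first found in placenta that binds ezrin and can signal through AGER, stood out in the other direction. It was at 0.907, 1.23 and 1.03 CPM in SW480, close to 20 counts a library, and at 29.4, 15.5 and 46.6 CPM in SW620. Even the lowest SW620 library was far above SW480, and the log2 fold change was 4.87 ± 0.43 (adjusted p = 4.86e-05), a 29.2-fold higher level. PEO4 libraries held 0.344 to 1.35 CPM of S100P, so SW620 was the only group of the 4 with more than 1.35 CPM in any library. S100A14, an S100 gene of epithelia, was low in both lines, with 0.756, 1.11 and 1.13 CPM in SW480 and 4, 1.51 and 5.30 CPM in SW620. The groups were separate and the log2 fold change was 1.87 ± 0.49 (adjusted p = 0.0193), but the call was lost in 3 of the 6 fits without 1 library. PEO4-like reads would make up 47.5%, 52.9% and 35.5% of S100A14 in the SW480 libraries and 7.92%, 21.3% and 31.5% in the SW620 libraries.

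The 3 annexins that were higher in SW620 changed less than 2-fold. ANXA11, which links RNA granules to lysosomes, had 115, 103 and 124 CPM in SW480 and 194, 151 and 232 CPM in SW620. ANXA4, an annexin of secretory epithelia, had 37.2, 37.4 and 41.8 CPM in SW480 and 59.5, 53.4 and 73.4 CPM in SW620. ANXA9, an atypical annexin with altered calcium-binding sites, had 4.94, 6.62 and 5.67 CPM in SW480 and 9.16, 11 and 11.2 CPM in SW620. In each case all SW620 libraries lay above all SW480 libraries. The log2 fold changes were 0.77 ± 0.20 for ANXA11 (adjusted p = 0.0159), 0.70 ± 0.17 for ANXA4 (adjusted p = 0.0115) and 0.89 ± 0.22 for ANXA9 (adjusted p = 0.0140). Without SW480 replicate 1, or without SW480 replicate 3, none of the 3 was called and the number of members called higher was 1, S100P, where these fits called 8.14% and 8.12% of their genes higher. ANXA11 also lost its call without SW480 replicate 2 and without SW620 replicate 1 and kept it in 2 of the 6 fits without 1 library (adjusted p 0.00198 to 0.0712), against 4 of 6 for ANXA4 and for ANXA9.

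The remaining 7 members tested did not pass the threshold. S100A4, the S100 protein most studied in metastasis and singled out here after its values were seen, had 126, 87.8 and 143 CPM in SW480 and 84.5, 54.9 and 122 CPM in SW620. The groups overlapped, and the 95% interval of the log2 fold change ran from -1.09 to 0.24 (edgeR adjusted p = 0.321). S100A6 (calcyclin), also singled out afterwards, had 60.4, 43.9 and 72.2 CPM in SW480 and 59.9, 35.5 and 84.9 CPM in SW620, with an interval from -0.64 to 0.74. S100A16, a widely expressed epithelial member, had 57.5, 34.3 and 52.7 CPM in SW480 and 78.2, 49.8 and 106 CPM in SW620 (adjusted p = 0.0947). ANXA7, an annexin of secretory granules, had 55.1, 34.8 and 54.1 CPM in SW480 and 74.5, 47.8 and 93.6 CPM in SW620 (adjusted p = 0.125). For S100A4, S100A6, S100A10, S100A11, S100A16 and ANXA7 replicate 2 was the lowest library of both lines. The same held for S100A2, S100A3, S100A13, ANXA2, ANXA3, ANXA5, ANXA6 and ANXA11. In the replicate 2 libraries genes with at most 1500 bases of joined exons had a median log2 deviation of -0.12 (SW480) and -0.19 (SW620). Genes over 5000 bases had -0.042 (SW480) and -0.088 (SW620). S100A3, S100A4, S100A6 and S100A11 fall in the short class. The others do not, among them S100A10 (1543 bases), S100A16 (1701 bases), ANXA7 (2862 bases), ANXA6 (5427 bases), ANXA11 (8513 bases) and ANXA2 (8824 bases). The part of these shifts in the genes' values was not tested. ANXA3 was lower in all 3 SW620 libraries without passing the test, at 44.7 to 63.7 CPM against 64.7 to 91.8 CPM (adjusted p = 0.0996), and S100A1 and S100A5 stayed between 0.487 and 1.71 CPM with overlapping groups.

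**Figure D3:**
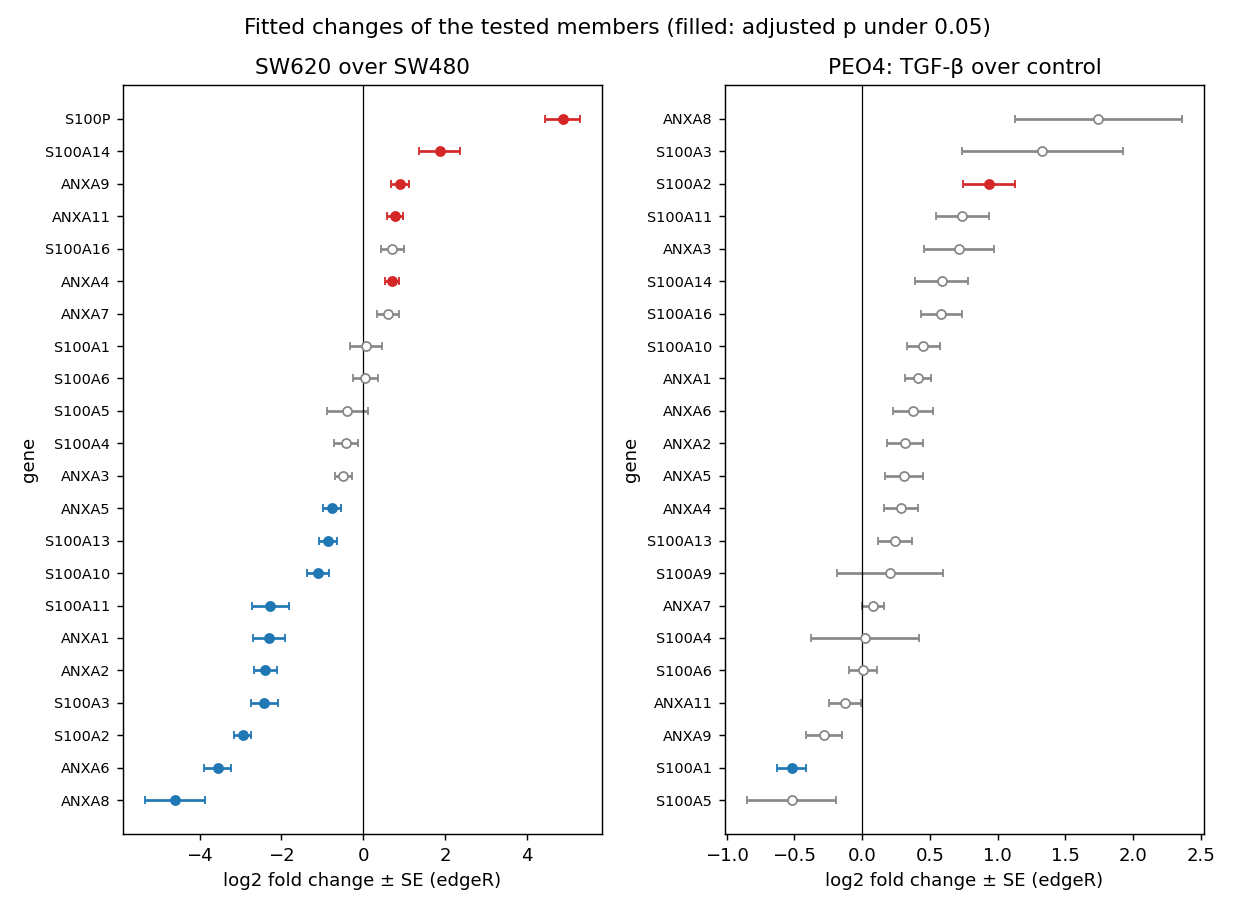
Log2 fold change with its standard error (bars) for the 22 tested members in SW620 over SW480 (left) and in PEO4 with TGF-β over control (right), with axes of different range; filled points have an adjusted p under 0.05. On the left 5 points are filled above 0 and 10 below it, and on the right only S100A2 and S100A1 are filled although 18 of 22 values are positive.

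Among members too low to be tested in the SW lines, S100A9, a subunit of calprotectin from neutrophils and monocytes, had 0, 0 and 1 counts in SW480 and 1, 12 and 44 counts in SW620. The 3 SW620 libraries thus disagreed, and its partner S100A8 had at most 4 counts in any SW library. Of 8 leukocyte markers, 5 exceeded 3 counts in every SW620 library and 2 did so in SW480, with sums of 2.63 to 22.4 CPM and of 2.47 to 3.43 CPM, where CSF3R and MPO were at 0 in SW480; their part in the S100A9 values was not tested. S100G (calbindin-D9k), the vitamin D-dependent carrier of the intestine, had 3 to 6 counts in SW480, 5 to 27 in SW620 and at most 2 in PEO4. ANXA13, an annexin of intestinal and renal epithelium, had at most 10 counts anywhere.

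TGF-β in PEO4 gave small differences in these genes, and most leaned upward. Of 22 members tested, 2 had an adjusted p under 0.05 in edgeR's test, S100A2 higher and S100A1 lower, which is 9.09% of the members tested. The same rule called 2.26% of all 19064 genes tested, 1.27% higher and 0.991% lower. The log2 fold change was positive for 18 of the 22 members and for 47.7% of all genes tested, with medians of 0.31 and -0.02. At an unadjusted p under 0.05 there were 12 members, where 16.7% of all genes tested had one. Replicate values did not overlap for 6 members that were higher and 2 that were lower, where 11.1% and 10.3% of all genes tested showed the same. Of 5 listed TGF-β responsive genes, all tested, 2 passed edgeR's test as higher and 0 as lower. These were TGFBI and PMEPA1, which rose by 2.33 ± 0.25 (adjusted p = 0.00266) and 2.32 ± 0.38 (adjusted p = 0.0182) on the log2 scale. Of the 7 ovarian markers 3 (WT1, MSLN and EMX2) were lower with TGF-β, and their part in the members' values was not tested.

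S100A2 stood at 14, 9.06 and 11.3 CPM in control and at 24.7, 26.2 and 16.5 CPM with TGF-β. All treated libraries exceeded all controls, and the log2 fold change was 0.94 ± 0.19 (adjusted p = 0.0442), a 1.92-fold higher level. S100A1, best known from heart and muscle where it tunes calcium release, had 35.6, 34.9 and 36.3 CPM in control and 27.8, 26.8 and 21.7 CPM with TGF-β. It fell by 0.52 ± 0.11 on the log2 scale (adjusted p = 0.0446) without overlap, but it shares 235 exon bases with S100A13, 320 with AL162258.2 and 34 with AL162258.1 on the opposite strand, so its counts are uncertain. The call of S100A2 was kept in 2 of the 6 fits without 1 library (adjusted p 0.0181 to 0.208), and that of S100A1 in 1 of 6 (adjusted p 0.0462 to 0.198). S100A2 also missed the threshold with limma-voom (adjusted p = 0.0587), and both genes missed it in a model of all 12 libraries (adjusted p = 0.0546 and 0.279).

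Just outside the threshold stood 4 members with separate groups. S100A11 had 66.5, 34.5 and 43.0 CPM in control and 85.3, 89.2 and 70.5 CPM with TGF-β (log2 fold change 0.74, adjusted p = 0.0946). S100A10 had 82.9, 61.0 and 60.9 CPM in control and 98.0, 103 and 85.1 CPM with TGF-β (log2 fold change 0.45, adjusted p = 0.0968). S100A16 had 253, 172 and 185 CPM in control and 364, 305 and 263 CPM with TGF-β (log2 fold change 0.58, adjusted p = 0.0927). For these genes control replicate 1 was the highest control and came nearest to the treated libraries. ANXA1, the second most abundant member in PEO4, had 699, 566 and 597 CPM in control and 780, 849 and 898 CPM with TGF-β (log2 fold change 0.41, adjusted p = 0.0672). No annexin passed edgeR's test, while 6 of 10 had an unadjusted p under 0.05 (16.7% of all genes) and DESeq2 and limma-voom called ANXA1.

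The other abundant members did not pass the test. ANXA2 had 892, 638 and 652 CPM in control and 1009.6, 942 and 822 CPM with TGF-β (adjusted p = 0.264). ANXA11 had 305, 302 and 246 CPM in control and 289, 282 and 230 CPM with TGF-β, and ANXA7 had 118, 95.8 and 105 CPM and 117, 120 and 109 CPM. S100A14 had 143, 87.2 and 93.5 CPM in control and 202, 165 and 129 CPM with TGF-β, overlapping through control replicate 1 (adjusted p = 0.178). S100A6 overlapped fully, at 83.5 to 102 CPM in control and 82.2 to 103 CPM with TGF-β, with a 95% interval of its log2 fold change from -0.23 to 0.24. S100A4 was near the bottom of the scale in PEO4, at 1.95 to 5.13 CPM in control and 2.54 to 4.13 CPM with TGF-β. The largest fitted changes belonged to genes of few counts that did not pass the test, ANXA8 at 1.74 (2 to 10 counts in control, 12 to 21 with TGF-β, adjusted p = 0.201) and S100A3 at 1.33 (6 to 19 and 12 to 50 counts, adjusted p = 0.302).

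How many members were called with TGF-β depended on the test and on control replicate 1. Without that library 12 members were called higher, where the same fit called 3.63% of its genes higher and 1080 genes in all. The fits without any 1 of the other libraries called 0 or 1 member higher and 72 to 233 genes in all. DESeq2 called 6 members and 3.28% of its genes higher, 967 genes in all. The authors' deposited table lists 6 members with an adjusted p-value under 0.05 and a higher level with TGF-β, S100A2, S100A10, S100A11, S100A14, S100A16 and ANXA1, and 1 with a lower level, S100A1, where that table calls 5.66% of its genes with an adjusted p-value. In the SW lines the authors' deposited table calls 5 members higher and 9 lower, where it calls 34.3% of its genes.

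**Figure D4:**
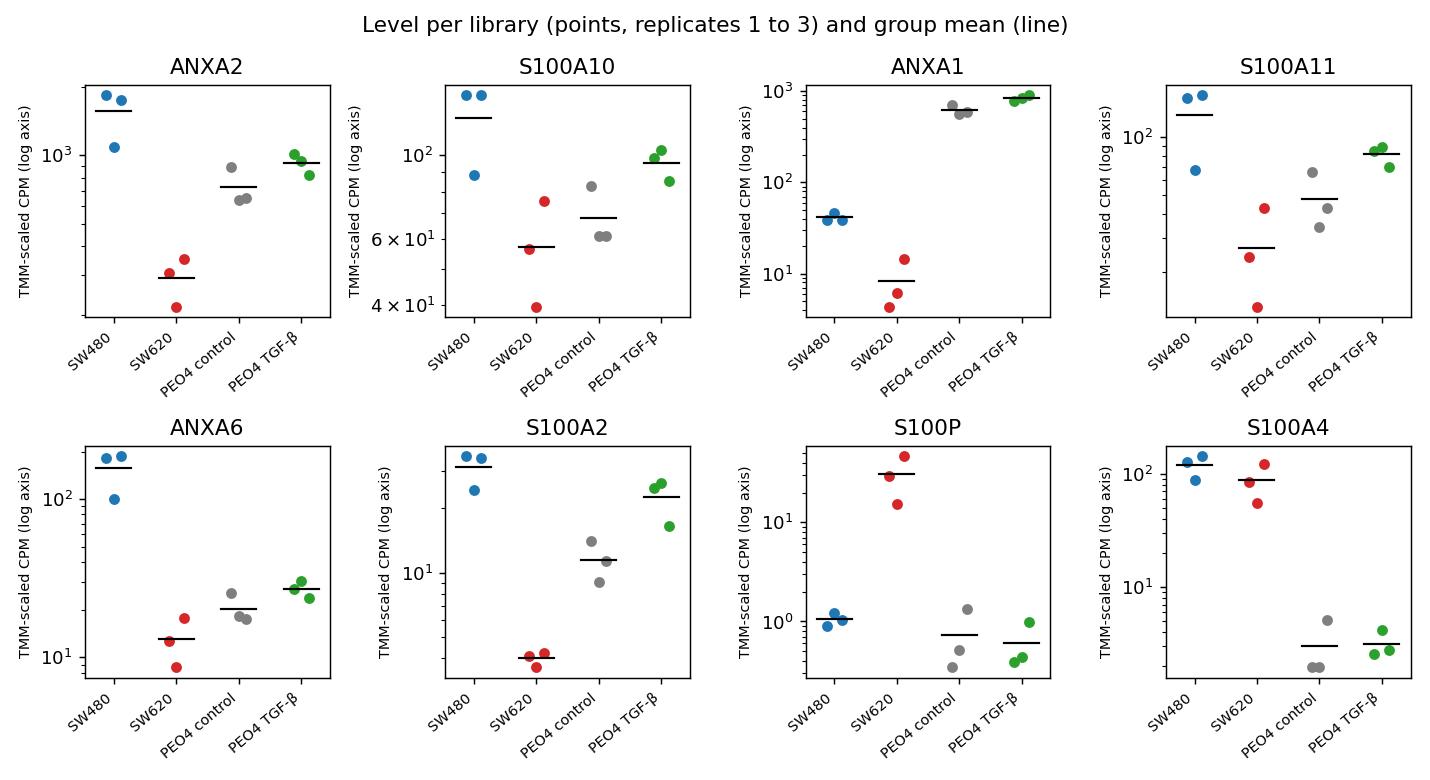
Level in TMM-scaled CPM (log axis, of different range in each panel) of 8 members in each library (points, replicates 1 to 3 from left to right) with the group mean (line). ANXA2, S100A10, ANXA1, S100A11, ANXA6 and S100A2 lie lower in SW620 than in SW480, S100P lies higher in SW620 than in any other group, and S100A4 separates both SW lines from PEO4.

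The comparisons use different libraries, so the values of the same genes can be set side by side. All 10 members called lower in SW620 had a positive log2 fold change with TGF-β in PEO4, from 0.24 for S100A13 to 1.74 for ANXA8, and 7 of the 10 had an unadjusted p under 0.05 there. Members leaned upward with TGF-β in general: of all 22 tested in PEO4, 18 were positive and 12 had an unadjusted p under 0.05. Of all 2898 genes called lower in SW620 and tested in PEO4, 1653 (57%) were positive and 512 (17.7%) were positive with an unadjusted p under 0.05. Of the 4 members called higher in SW620 and tested in PEO4, 2 were positive. Only S100A2 passed the adjusted threshold in both comparisons, lower in SW620 and higher with TGF-β.

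Levels in PEO4 and in the SW lines, which differ in tissue and medium, are set side by side as descriptions without a test. In bulk RNA, fewer cells of a type and less RNA per cell cannot be told apart. All 6 PEO4 libraries exceeded all 6 SW libraries for 7 of the 32 members, and all were below them for 2. Of the 23457 genes kept by the filter, 21.1% and 18.1% did so. The 7 are near that share and the 2 are below theirs, over members that include those at few counts. S100A14 was 59.4-fold higher in PEO4 than in SW libraries by mean CPM, ANXA1 29.4-fold, S100A1 21.8-fold, S100A16 4.08-fold, S100A13 2.98-fold, ANXA9 2.28-fold and ANXA7 1.85-fold. S100A4 was 33.4-fold higher in the SW libraries, at 54.9 to 143 CPM, and S100G was the other gene higher there, at few counts. Among the S100 genes of chromosome 1, S100A4 was lower in PEO4 and S100A16, S100A14, S100A13 and S100A1 were higher. The others overlapped between PEO4 and SW, among them the abundant S100A6, S100A10 and S100A11.

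**Figure D5:**
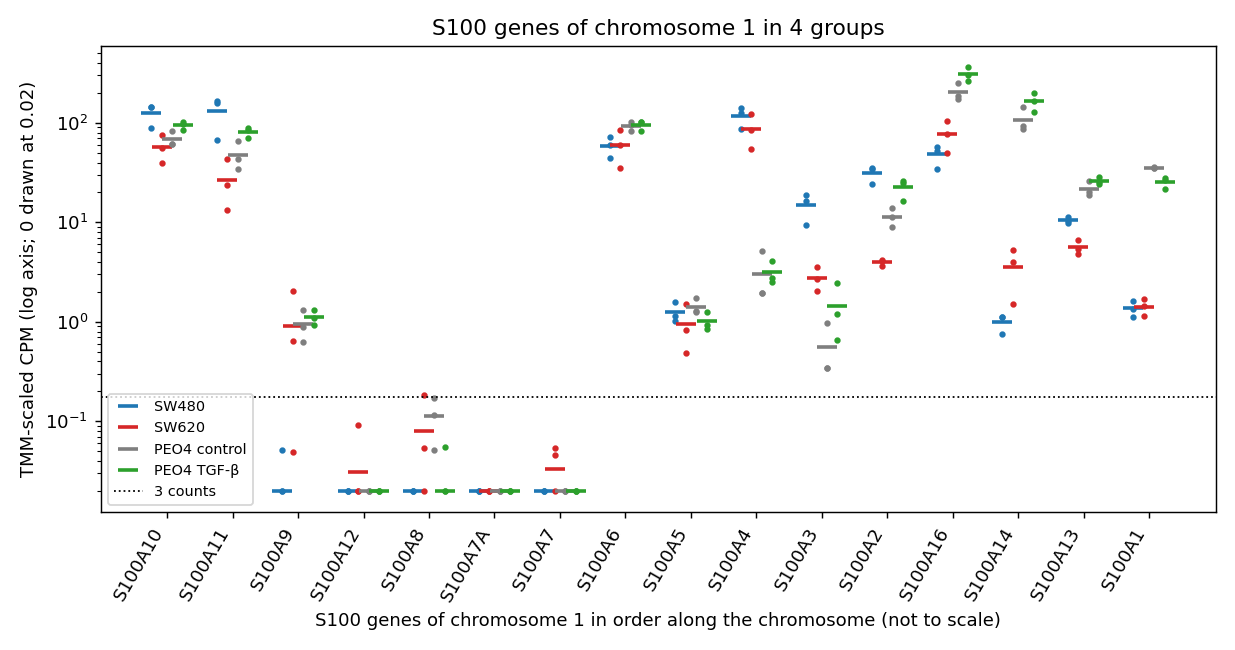
Level of the 16 S100 genes of chromosome 1 in their order along the chromosome (not to scale), as TMM-scaled CPM on a log axis, with each library as a point and each group mean as a bar; the dotted line marks 3 counts in the library where they weigh most. The calprotectin and psoriasin genes from S100A9 to S100A7 stay at or below 2.04 CPM, and their neighbours S100A11 and S100A6 stand at 13.3 CPM or more in every library.

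On chromosome 1 the stretch from S100A9 through S100A12, S100A8 and S100A7A to S100A7 was nearly silent in all groups, with S100A9 the only gene there above 0.186 CPM. The stretch from S100A6 to S100A1 held abundant and low genes side by side, with S100A5 at 0.487 to 1.72 CPM over all libraries between S100A6 and S100A4. Within it neighbours differed between SW620 and SW480 in opposite directions: S100A2, S100A3 and S100A13 were lower, S100A14 was higher, and S100A4, S100A5, S100A6, S100A16 and S100A1 did not pass the test.

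Per kilobase of the principal transcript, ANXA2 led in every group, at 1080 ± 282 in SW480, 202 ± 47.4 in SW620, 504 ± 99.1 in PEO4 control and 640 ± 65.8 with TGF-β, in CPM per kilobase (SD, n = 3). In SW480 S100A11 (220 ± 91.6), S100A4 (208 ± 49.3) and S100A10 (138 ± 35.2) followed, and the first of these did not differ from S100A4 beyond their spread. In SW620 the gap narrowed, with S100A4 at 153 ± 59.4 and S100A6 at 89.3 ± 36.7 behind ANXA2. The SDs of ANXA2 and S100A4 overlap, but both genes were measured in the same libraries, and ANXA2 was higher in each of them. In PEO4 control ANXA1 (334 ± 37.3), S100A16 (196 ± 41.6) and S100A6 (139 ± 13.8) followed ANXA2, and with TGF-β ANXA1 (453 ± 32.0), S100A16 (300 ± 48.9) and S100A14 (155 ± 34.1) did. With the length of all exons joined in place of the principal transcript, S100A11 led in SW480, S100A4 in SW620 and ANXA1 in PEO4, so the first place depends on the length used. As shares of all counts, the 12 annexins held 0.23% in SW480, 0.0849% in SW620, 0.173% in PEO4 control and 0.208% with TGF-β, and the 20 S100 genes held 0.0581%, 0.0395%, 0.0544% and 0.0734%.

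Receptors and partners of these proteins were read from lists. Of 8 listed S100 receptors 6 were tested in the SW lines, 0 were higher and 2 were lower in SW620, where all genes gave 13.5% and 17%. TLR4, a receptor for S100A8 and S100A9, fell from 31.8 ± 3.66 CPM to 2.38 ± 0.373 CPM between SW480 and SW620 (SD, n = 3), and MCAM, an adhesion protein that also binds S100 ligands, from 173 ± 39.6 to 21.7 ± 6.88 CPM. None of the 3 formyl peptide receptors that ANXA1 acts on was high enough to test. Of 12 tested partners of S100 proteins and annexins 2 were higher and 4 lower in SW620. AHNAK, the giant scaffold that docks on the complex of S100A10 and ANXA2, was lower along with both, by a log2 fold change of -2.48 ± 0.24 (adjusted p = 7.79e-05), and DYSF, the membrane repair protein dysferlin, by -3.56 ± 0.57 (adjusted p = 0.00154). PDCD6, an EF-hand protein that binds ANXA7 and ANXA11, was higher, by 0.94 ± 0.14 (adjusted p = 0.00115). With TGF-β in PEO4, 0 of 6 receptors and 0 of 13 partners passed the test, where 2.26% of all genes tested did. At that share, lists of this size can be expected to hold none.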

How the data were processed

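Per the labels, total RNA was depleted of ribosomal RNA, treated with DNase and sequenced on an Illumina instrument. The submitters' processing notes name Trimmomatic 0.36, STAR 2.5.2b, Subread 1.5.2 with featureCounts, DESeq2 and GRCh38; annotation and strand setting are not given in the sources used here. The authors deposited whole-number counts per gene. Their deposited tables of differences hold a signal per library (the count over 1 size factor, checked on the values), a log2 fold change, and p-values with and without adjustment as named in the columns per the file headers.

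The members and lists were chosen with earlier results of these data known. Counts were fitted with edgeR 4.0.16 in R 4.3.3 (filterByExpr, TMM, glmQLFit and glmQLFTest, two-sided), each comparison on its own 6 libraries, with Benjamini-Hochberg adjustment over all genes tested and a threshold of 0.05. The standard error is the log2 fold change over the root of F, and 95% intervals use the t distribution with the test's total degrees of freedom. Named with values per library were members past the threshold in either comparison, the 6 of highest mean CPM, and members at 10 CPM or more in a line and at most 3 counts throughout another group; others were singled out after their values were seen. Lengths and overlaps come from GENCODE 29, which held 56898 of the gene IDs. For PEO4-like reads in SW libraries, a minimum of 100 CPM in PEO4 found 0 genes, so 10 CPM was used after seeing this, and values less these reads were added after seeing the data. The fit was tested on simulated counts that gave every gene the same dispersion and held no shifts shared between libraries. That setting is simpler than these data, so it says nothing on such shifts. Floors cover counting error only.

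Alternatives were DESeq2 1.42.0, limma-voom (limma 3.58.1), scaling by RLE, by the upper quartile or by totals, a filter of 10 counts in each library or none, a replicate block, all 12 libraries in 1 model, and each library left out. Corrections for gene length and GC content were added after seeing the data.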

Additional observations from a re-analysis of the deposited data

How the results depend on the processing

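In the SW lines 8 of the 15 called members kept their call under every alternative that gave a value, namely S100P, ANXA1, ANXA2, ANXA6, ANXA8, S100A2, S100A3 and S100A11; the other 7 lost it in at least 1. ANXA5 also lost it under the corrections for gene length and GC content. In PEO4 neither called member kept its call under all. Leaving out 1 library gave 4253 to 7419 genes called in the SW lines, 1 to 7 members higher, and in PEO4 72 to 1080 genes, 0 to 12 members higher and 0 to 1 lower.

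Replicate numbers were not taken to pair the libraries, since same-numbered libraries correlated at 0.0159, 0.670 and 0.567 in the SW lines and at 0.291, -0.140 and 0.481 in PEO4, and not every library correlated best with its own number. This was decided on all tested genes. Over genes above a mean log2 CPM of 2 the correlations were 0.194, 0.772 and 0.702 in the SW lines and 0.554, 0.155 and 0.636 in PEO4, all over 0.1, and every PEO4 library then correlated best with its own number, a hint from the data that they pair. With the replicate block 10667 genes were called in the SW lines and 2102 in PEO4, with 9 members higher there (S100A2, S100A10, S100A11, S100A14, S100A16, ANXA1, ANXA2, ANXA3 and ANXA6), where 6.35% of all genes were higher. In the SW lines the block added calls for S100A4, S100A16, ANXA3 and ANXA7. Length correction with the block gave 11266 and 1894 genes and 11 members higher in PEO4, and GC correction with the block gave 11292, 1807 and 10. In PEO4, DESeq2 called 967 genes and 6 members higher, and no filter gave 1457 and 8. A single model of 12 libraries called 165 genes and 0 members in either direction, and length or GC correction alone called 0 members higher. The causes were not tested.

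Log2 fold changes near 0 changed sign. In the SW lines S100A6 was -0.0067 with limma-voom and -0.29 to 0.37 without 1 library, and S100A1 was -0.056 to 0.26 without 1 library. In PEO4 S100A6 was -0.00014 with limma-voom, -0.022 with upper quartile and -0.017 with total-count scaling, -0.044 with GC correction, -0.050 with GC correction and block, and -0.047 to 0.097 without 1 library. S100A4 was -0.014 and -0.015 with those scalings and -0.21 to 0.65 without 1 library, and S100A9 was -0.012 to 0.55 without 1 library. For genes at few counts, such as ANXA8, S100A9 and S100G, depth limits the precision.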

Other observations

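Of 19 tested EF-hand genes outside the S100 family 2 were higher and 3 lower in SW620, near the shares of all genes tested, 13.5% and 17%. LCP1 (L-plastin), an actin bundler with EF hands that is typical of leukocytes and is found in many carcinoma lines, had the largest difference of that list, from 2.87 ± 0.229 CPM in SW480 to 206 ± 63.7 CPM in SW620 (SD, n = 3). RCN1, a calcium binder of the endoplasmic reticulum, and CAPNS1, the small calpain subunit, were lower, by log2 fold changes of -1.08 ± 0.28 and -0.96 ± 0.25 (adjusted p = 0.0164 and 0.0192). Of 10 tested genes from a list of calcium-dependent phospholipid binders, 2 were higher and 2 lower in SW620. The copines, which bind phospholipid in a calcium-dependent way as annexins do, split, with CPNE7 (1.66 ± 0.30, adjusted p = 0.00263) and CPNE2 (0.96 ± 0.18, adjusted p = 0.00333) higher and CPNE8 (-2.73 ± 0.51, adjusted p = 0.00325) lower.

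Of 9 tested genes of the S100 fused type or next to the cluster on chromosome 1, 4 were lower and 1 was higher in SW620, where 17% and 13.5% of all genes tested were. FLG (filaggrin) fell from 27.2 ± 1.04 to 6.12 ± 2.10 CPM and TCHH (trichohyalin) from 5.29 ± 0.977 to 0.386 ± 0.135 CPM (SD, n = 3). With TGF-β in PEO4, TCHHL1 rose by 1.91 ± 0.36 (adjusted p = 0.0319) and CPNE2 by 0.62 ± 0.13 (adjusted p = 0.0454) on the log2 scale. Of the other EF-hand genes 0 of 20 passed the test, where 2.26% of all genes tested did.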
